A study of Rattus norvegicus with 3 samples.

Results

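Ribosomal protein genes encode the protein part of the cytoplasmic ribosome, and 80 of the 29772 genes in the deposited rat matrices were taken as such by their symbols. A symbol counted when it was Rps or Rpl with a number and at most 1 further letter, Rplp0, Rplp1, Rplp2 or Rpsa, and the S6 kinase genes were left out. Of the 80, 31 belong to the small subunit, 46 to the large subunit, and 3 (Rps27l, Rpl3l and Rpl39l) are paralogues of core members. Fau and Rack1 also encode ribosomal proteins but fall outside the symbol pattern, and were used for comparison. The pattern itself uses symbols alone, though it was set with earlier results of these data known.

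Single cells of wild-type embryonic rat cerebral cortex were profiled with the 10x Genomics 3′ kit in 3 libraries, named here by their labels E14, E16 and E18 for embryonic days 14, 16 and 18. There was 1 library per label, the labels name no treatment, and the number of embryos behind a library is not given in the sources used here. Dissociation was with papain according to the labels, whose protocol text also describes cultured, multiplexed and sorted human cells, so the steps these rat libraries went through are uncertain. With 1 library per label there was no replicate check and no test between labels, and the 95% intervals given cover counting error alone.

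Ribosomal proteins are needed in equal numbers in each ribosome, and growing cells make their messenger RNAs in large amounts, so the genes are usually regulated together. Many of these messages begin with a terminal oligopyrimidine tract, a C followed by further C or T bases at the transcript start, through which growth signals control their translation. In the developing cortex, radial glia act as stem cells and give rise to intermediate progenitors, which divide into neurons.

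The transcript starts of 12 members named by the rule in the methods are printed first, because the tract is a shared feature that the choice of genes did not use. RefSeq windows of 30 bases, 10 before and 20 from the annotated start, were found for 64 of the 80 members. They are on build GRCr8, another build than the mRatBN7.2 that the submitters' processing notes name. A tract, counted as C at the annotated start followed by at least 4 C or T bases on the strand of the gene, was present in 24 of the 64 (37.5%). It was present in 881 of 33469 windows of the whole table (2.63%) and in 2 of 60 mitochondrial ribosomal protein genes (3.33%). The 12 show both kinds, and their balance does not stand for the share with a tract. Of the other members so named that have a window, Rpl35a has a tract and Rpl7a, Rplp2, Rpl5, Rpl11 and Rpl3l have none. Capitals mark the tract, and windows without one are in lower case.
Rps7, chr6:50999426-50999455, minus strand: agagctgtgtCTCTTTCTaagccggcactc
Rpl10, chrX:157205840-157205869, plus strand: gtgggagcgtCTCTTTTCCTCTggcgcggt
Rplp0, chr12:46718371-46718400, minus strand: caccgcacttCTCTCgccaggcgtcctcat
Rplp1, chr8:71290853-71290882, minus strand: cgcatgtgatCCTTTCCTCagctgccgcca
Rpl17, chr18:70856266-70856295, plus strand: ttcgcgcttcCTCTTCCTgttagcggccag
Rpl31, chr9:49143101-49143130, plus strand: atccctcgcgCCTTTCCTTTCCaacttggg
Rps28, chr7:15311314-15311343, minus strand: ccctgctcacgtgactcctctccgctagat
Rps21, chr3:187724028-187724057, plus strand: agccacttcctttctgtgttctccgtagac
Rpl38, chr10:100200425-100200454, plus strand: ttctttttccgttgttcggtgctcgctcct
Rpl4, chr8:73566467-73566496, plus strand: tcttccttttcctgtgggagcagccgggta
Rpl13, chr19:68062504-68062533, plus strand: cggtgcccgatcctttccgctcggccgttc
Rps27l, chr8:76443648-76443677, plus strand: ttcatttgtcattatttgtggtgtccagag
Rpl13 and Rps21 carry pyrimidine runs of 8 and 5 bases at the annotated start that begin with T, and so were not counted. A window without a tract says only that these letters are not at this annotated start.

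After filtering at 1000 genes and at most 10% mitochondrial UMIs (unique molecular identifiers, counts of captured molecules) and removing doublets, 4286, 4977 and 5431 cells remained. Values given as 3 numbers follow the order E14, E16, E18 throughout. The libraries held 62740631 to 80974234 UMIs, and any pair of them shared between 12 and 17 cell barcodes. The cell makeup did not follow the order of the labels. Radial glia numbered 391, 3055 and 1806 and maturing neurons 1948, 1 and 399, and the radial glia labelled E16 formed clusters 0, 3 and 10, where those labelled E14 and E18 formed mainly clusters 5 and 6. Directions are therefore between the libraries as labelled, and age, library and cell makeup cannot be told apart. In radial glia Emx1, a marker of the dorsal cortex, stood at 79.2, 158 and 139.8 CPM (UMIs per 1000000 UMIs of the group) and Pax6, a transcription factor of cortical progenitors, at 309.8, 185 and 262 CPM.

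Ribosomal protein genes took 13.9% to 23.2% of the UMIs in the classes outside the erythroid cells, with progenitors mostly above neurons. In radial glia the share was 16.7% (16.67 to 16.74), 23.2% (23.15 to 23.18) and 20.6% (20.60 to 20.63). The library labelled E16 was highest and that labelled E14 lowest, and the middle 50% of cells spanned 15% to 19.1%, 21.4% to 25.9% and 18.3% to 23.5%, so these ranges did not overlap between E14 and E16. A median radial glial cell held 2322, 3241 and 2660.5 ribosomal protein UMIs beside 10828, 10371 and 9998 other UMIs. In intermediate progenitors the shares were 19.6% (19.53 to 19.60), 20.6% (20.58 to 20.66) and 20.7% (20.63 to 20.68), a narrower range.

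Newborn excitatory neurons were at 15.5% (15.47 to 15.51) labelled E14 and 17.2% (17.14 to 17.17) labelled E18, and the library labelled E16 had 3 such cells. Cluster 12, with 593 cells labelled E16, was left without a class name: 8 of 11 newborn neuron markers were raised, but of its 10 leading genes 3 are on the Cajal-Retzius marker list (Calb2, Nhlh2 and Ebf2) and 1, Nhlh2, on the newborn list. Neurod6, a newborn neuron marker, was at 548 CPM in it, against 1158 and 1229 CPM in newborn neurons labelled E14 and E18 and 80.4 CPM in Cajal-Retzius-like cells labelled E16. Reln, the reelin gene, was at 86.9 CPM, against 4.01 and 6.78 CPM and 1323 CPM. Summed over the 9 Cajal-Retzius markers found, it had 723 CPM, against 165, 223 and 3578 CPM. The newborn neuron list summed to 2887 CPM in it, below the 3829 and 4239.8 CPM of newborn neurons labelled E14 and E18, and the maturing neuron list to 5879 CPM, above their 3459.5 and 4386 CPM. Stmn2, a marker on the latter list, was at 3321 CPM, against 1641 and 1856 CPM. Its share was 18.1% (18.12 to 18.18). It is set beside the newborn neurons below, a use chosen after seeing the data, and the part of the different cell makeup in its values was not tested. Maturing neurons were at 15.1% (15.05 to 15.08) labelled E14 and 14.6% (14.52 to 14.58) labelled E18. The class of lowest share in the library labelled E18 was the Cajal-Retzius-like cells, early neurons that secrete reelin, at 13.9%, against 16.6% labelled E16. GABAergic lineage cells, which give inhibitory neurons, had 14.9%, 18.2% and 14.6%. Their makeup differed between libraries: Gad2, an enzyme of GABA synthesis, was at 576, 711 and 536 CPM, but Sox2, a transcription factor of neural progenitors, at 505, 144 and 459.9 CPM and Pax6 at 35.3, 274 and 48.0 CPM. The class called hem-like by its Wnt and Rspo markers, genes of the signalling centre at the cortical edge, also expressed Fgf8 (172 and 89.5 CPM labelled E16 and E18) and Fgf17 (304 and 173 CPM), known from the rostral patterning centre, and whether it mixes cells of both was not tested. It had 22% labelled E16 and 18.7% labelled E18.

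**Figure D1:**
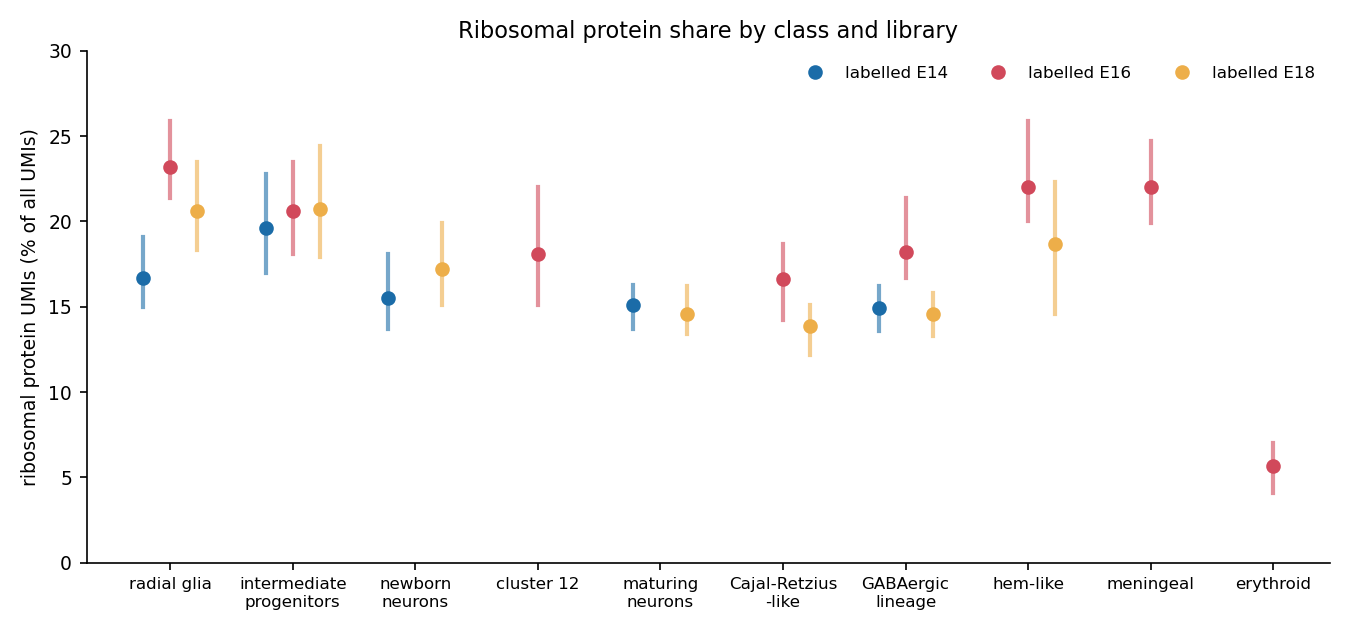
Ribosomal protein UMIs as a percentage of all UMIs (y axis) for each class (x axis) and library (colour). Points are shares of summed UMIs and bars span the quartiles over cells; radial glia lie at 16.7, 23.2 and 20.6% and maturing neurons at 15.1 and 14.6%.

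Within a library, newborn neurons taken as 1 class had a lower share than radial glia, 0.927-fold labelled E14 (log2 ratio -0.11, -0.113 to -0.106) and 0.832-fold labelled E18 (-0.27, -0.267 to -0.263). Cluster 12 labelled E16 had 0.783-fold (-0.35). Under the alternatives tried these 2 newborn ratios stayed below 0, but ran from -0.26 to -0.03 labelled E14 and from -0.34 to -0.10 labelled E18. The clusters of newborn neurons differed. Labelled E14, cluster 2 had 16.3% and cluster 16 had 13.0%, against 16.7% in radial glia. Labelled E18, clusters 4, 7 and 16 had 15.5%, 20.3% and 12.6%, against 20.6% in radial glia. Cluster 7, with 850 cells labelled E18, thus lay close to radial glia. Intermediate progenitors were 1.17-fold above radial glia labelled E14 (0.23), 0.890-fold labelled E16 (-0.17) and 1.00-fold labelled E18 (0.00). The value labelled E16 turned to 0.05 with a stricter cell filter. Maturing over newborn neurons gave -0.04 labelled E14, which turned above 0 under several alternatives, and -0.24 labelled E18.

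Between libraries, radial glia labelled E16 were 1.39-fold above those labelled E14 (log2 ratio 0.47) and those labelled E18 1.23-fold above them (0.30), 2 comparisons that share the library labelled E14. Radial glia labelled E18 were 0.890-fold of those labelled E16 (-0.17), or -0.06 with the stricter filter. The same ratios were 0.08, 0.08 and 0.00 in intermediate progenitors. GABAergic lineage cells, with the differing Sox2 and Pax6 levels given above, had 0.29 for E16/E14 and -0.03 for E18/E14, and the part of their makeup was not tested. Radial glia labelled E16 lay in other clusters than most of those labelled E14 and E18, and the part of that makeup was not tested either.

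Other measures moved with these shares. The mitochondrial share of UMIs in radial glia was 5.26, 3.61 and 4.39%, in the reverse order of the ribosomal protein share, and leaving mitochondrial and haemoglobin UMIs out gave ribosomal protein shares of 17.6, 24 and 21.6%. Of 11 dissociation stress genes 3 reached 50 CPM in radial glia: Jun was at 340.2, 182 and 260.5 CPM, Jund at 105, 107 and 126 CPM and Ier2 at 50.7, 94.9 and 76.3 CPM. Deeper cells had lower shares, from 18.4% to 15.5% between the lowest and the highest of 3 depth groups in radial glia labelled E14, from 24.7% to 22.2% labelled E16 and from 21.5% to 20% labelled E18. Median depths of radial glia were 13084, 13577 and 12641 UMIs, and within cells of 8000 to 16000 UMIs the log2 ratios were 0.43 for E16/E14 and 0.23 for E18/E14. The part of mitochondrial content and stress genes in the differences was not tested.

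Shares differed between clusters of 1 progenitor class, and several clusters led by genes of mitosis, or with histone genes among their leading genes, were low. Cluster 5, radial glia led by Aldoc and Slc1a3, had 18.5% labelled E14 and 22.7% labelled E18, and cluster 6, radial glia led by Prc1 and Top2a, genes of cell division, had 15% and 19%. Their log2 ratio, cluster 6 over 5, was -0.30 and -0.26. Cluster 10 over cluster 0, radial glia labelled E16 led by Ube2c and Ccnb1 and by Ung and Cdc6, gave -0.20. Cluster 3, radial glia labelled E16 led by the histone genes H4f3 and H1f5, gave -0.12 over cluster 0. Cluster 17, radial glia labelled E18 that Cdkn3 and Ccnb2 lead, also genes of the dividing cell, lay between clusters 6 and 5 at 21.3%. Cluster 8, intermediate progenitors led by Neurog2 and Eomes, had 22.1, 24.3 and 24.6%, and cluster 14, intermediate progenitors led by Ube2c and Hmmr, had 15.3, 18.6 and 17.1%, with log2 ratios of -0.53, -0.38 and -0.53. Cluster 11, intermediate progenitors with histone genes among the leading genes, gave -0.35, -0.20 and -0.35 over cluster 8. The median depth labelled E14 was 16908 UMIs in cluster 6 against 11587 in cluster 5, and 10290.0 UMIs in cluster 14 against 10146 in cluster 8. Ribosomal protein genes were kept out of the clustering, but the clusters were made from the same cells, so these values are a description.

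Differences between libraries also appeared within single clusters. The E18/E14 log2 ratio was 0.30 in cluster 5 and 0.34 in cluster 6, against 0.30 in all radial glia. Clusters 5 and 6 held 7 and 3 cells labelled E16, and clusters 0, 3 and 10 held 2, 1 and 1 labelled E14. The E16/E14 ratio of radial glia therefore has no value within a cluster. The E16/E14 ratio was 0.13, 0.29 and 0.28 in the intermediate progenitor clusters 8, 11 and 14, all larger than the 0.08 of the whole class. The E18/E14 ratio was 0.16, 0.15 and 0.16 in these clusters, also above the 0.08 of the class. Cluster 11, led by Gadd45g and the histone gene H1f5, had 17.3, 21.1 and 19.3%. The 463, 410 and 973 intermediate progenitors were spread differently over these clusters, with 280, 67 and 393 cells in cluster 8.

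**Figure D2:**
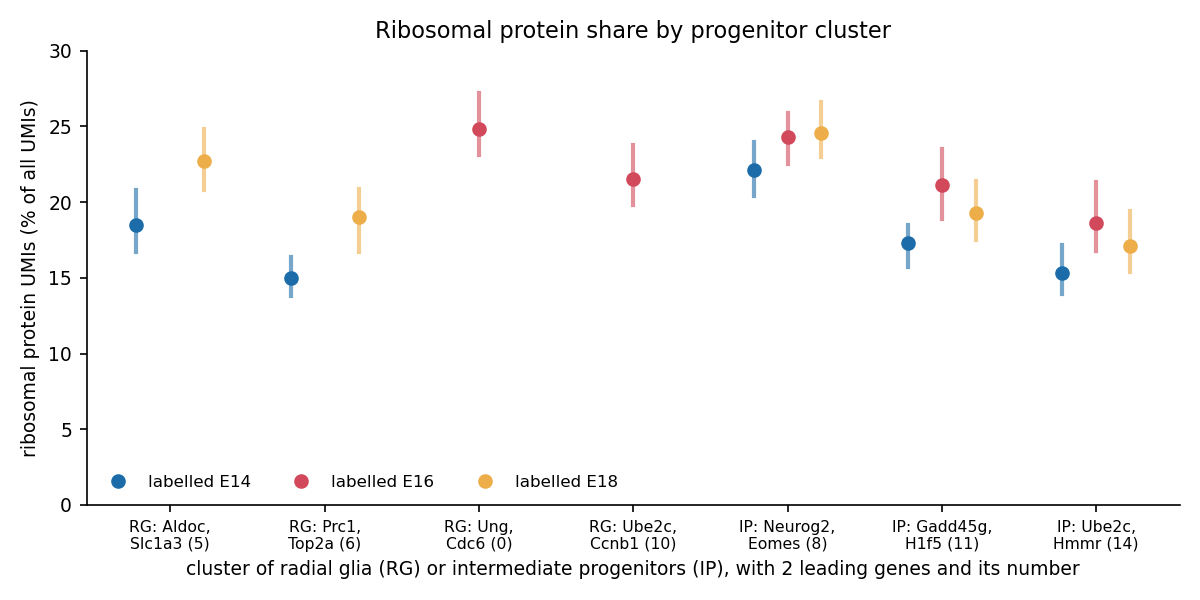
Ribosomal protein share of UMIs (y axis, %) in progenitor clusters named by 2 of their leading genes (x axis), by library (colour). Points are shares of summed UMIs and bars span the quartiles over cells; cluster 14 lies at 15.3, 18.6 and 17.1% against 22.1, 24.3 and 24.6% in cluster 8.

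In radial glia most members moved in the same direction, and few departed from the others by 1.5-fold. For each contrast the log2 CPM ratio of a member, with 1 CPM added, was set against the median ratio of the members with a mean of at least 50 CPM, and the difference is called its departure. All genes were treated in the same way about their own median. Of the 80 members, 78 reached this level in radial glia. Rpl3l, a muscle paralogue, was at 0, 0.0844 and 0.0393 CPM, and Rpl39l, a paralogue known from testis, at 0.695, 2.95 and 1.37 CPM. In radial glia 77 of 78 members were higher labelled E16 than E14 (median log2 ratio 0.52, all genes -0.08) and 71 of 78 higher labelled E18 than E14 (0.29, all genes -0.04). For E18/E16, 66 of 78 were lower (-0.19, all genes 0.03). In intermediate progenitors taken as 1 class the shift was smaller. There 53 of 78 members were higher for E16/E14, 47 for E18/E14 and 34 for E18/E16, with medians of 0.11, 0.07 and -0.02, beside 0.00, 0.01 and 0.02 for all genes, of which 49.7%, 51.1% and 52.8% were higher. For E18/E16, 69 of 78 members were lower in hem-like cells (median -0.26), 68 of 77 in Cajal-Retzius-like cells (-0.26) and 68 of 77 in GABAergic lineage cells (-0.33). All genes there had medians of 0.03, 0.05 and 0.05, with 53.4%, 55.9% and 53.8% higher. In newborn neurons 60 of 77 were higher for E18/E14, with a median of 0.15, beside 52.6% of all genes and a median of 0.01. In maturing neurons 31 of 77 were higher for E18/E14, with a median of -0.06, beside 54.2% of all genes and a median of 0.03. Neurons of the 2 libraries also lay in different clusters. Newborn neurons labelled E14 were mainly in cluster 2 (1174 cells) and those labelled E18 in clusters 4 and 7 (1015 and 850), and maturing neurons were in clusters 1 and 9 (1217 and 731) and in cluster 15 (381).

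Departures of 1.5-fold in radial glia numbered 0 higher and 1 lower for E16/E14, against 6.90% and 10.4% of genes. For E18/E14 there were 1 higher and 0 lower (2.92% and 4.87% of genes), and for E18/E16 0 in either direction (3.22% and 1.40%). At a lower threshold of 25%, or 0.32 log2 units, there were 4 higher and 8 lower for E16/E14 (18.7% and 20.6%), 12 and 4 for E18/E14 (14.2% and 14.5%) and 7 and 1 for E18/E16 (9.86% and 5.84%). The standard deviation of the departures was 0.21, 0.26 and 0.17 in these 3 contrasts, against 0.61, 0.39 and 0.31 over all genes. The members are abundant and so have little counting error, and the gene values include genes near 50 CPM.

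In radial glia the 3 highest departures for E18/E14 were those of small subunit members. Rps28, which sits near the mRNA exit, was at 769.8, 1251 and 1498 CPM in radial glia, lowest labelled E14, and was the 1 member past 1.5-fold for E18/E14, with a log2 ratio of 0.96 (0.92 to 1.01) and a departure of 0.67. Rps29 was at 1876, 2723 and 3385 CPM (departures 0.57 for E18/E14 and 0.51 for E18/E16). Rps21 was at 1463, 2379.7 and 2653 CPM (0.57 for E18/E14). All 3 were lowest labelled E14 and highest labelled E18. Rps20 had 2563, 3852 and 2920.4 CPM and a departure of -0.21 for E18/E16.

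Large subunit members stood at both ends. Rpl38, known for its part in the translation of Hox messages, was at 511, 761 and 883 CPM in radial glia, with departures of 0.50 for E18/E14 and 0.41 for E18/E16. For E18/E14 it had the highest departure of all members in intermediate progenitors (0.63) and in newborn neurons (0.58), which came from different clusters in the 2 libraries. Rpl31, by the tunnel exit, was at 944, 1712 and 1409.7 CPM (0.34 for E16/E14). At the low end, Rpl13 was at 3283, 3689 and 2989 CPM and Rpl7a at 2366, 2555 and 2131 CPM, with departures of -0.42 and -0.44 for E18/E14. Both were lower labelled E18 than E14 while most members were higher. Rpl17, beside the exit tunnel, was at 2248, 3316 and 2204 CPM, highest labelled E16 (-0.40 for E18/E16). Rpl35a, listed at 61.5, 62.0 and 56.8 CPM, was near the level minimum, with departures of -0.50 for E16/E14 and -0.40 for E18/E14.

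Several members departed in the same direction in other classes of the same libraries. Of 77 members measured in 5 classes for E18/E14, 28 were above the members' median in every class (17.0% of genes about their own) and 27 below it (17.4%). At 0.32 log2 units in every class, 4 were higher, Rps21, Rps29, Rps28 and Rpl39 (0.925% of genes), and 1 lower, Rpl13 (1.12%). Their departures ran from 0.51 to 0.62 for Rps21, from 0.45 to 0.62 for Rps29, from 0.42 to 0.67 for Rps28, from 0.45 to 0.52 for Rpl39, a small protein of the exit tunnel, and from -0.42 to -0.36 for Rpl13. Rpl38 had 0.30 to 0.63. For E18/E16, also in 5 classes, 3 were higher, Rps29, Rps28 and Rpl38 (0.695% of genes), and 1 lower, Rpl17 (0.695%), at -0.55 to -0.36. These comparisons share the library labelled E18. For E16/E14, in 3 classes, Rpl31 was among the members that were higher in each (5.91% of genes), and Rplp0 was lower (6.68%). Classes of 1 library share its preparation and sequencing, so they are not replicates of a label.

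**Figure D3:**
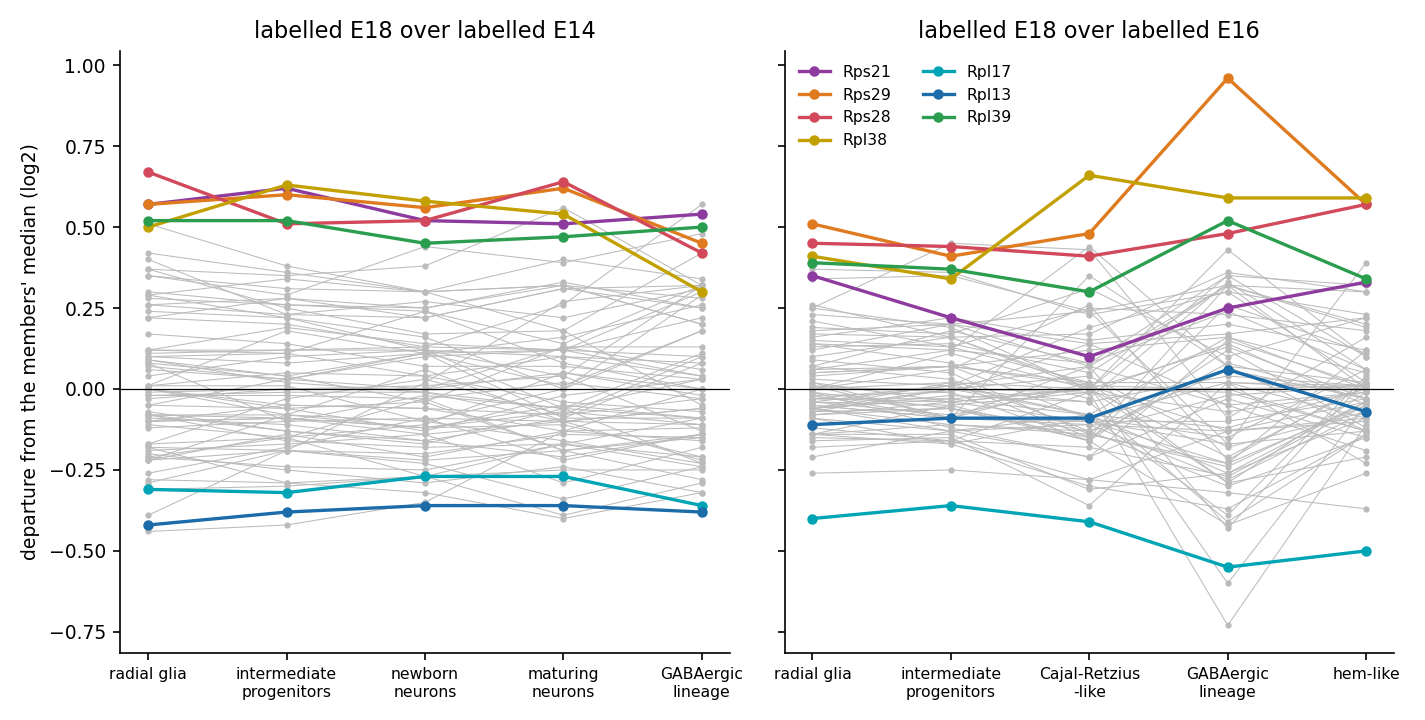
Departure of each member (line) from the members' median, in log2 units (y axis), by cell class (x axis), for the library labelled E18 over that labelled E14 (left) and over that labelled E16 (right). On the left Rps28, Rps29, Rps21 and Rpl39 lie at 0.42 or above in the 5 classes, and on the right Rpl17 lies between -0.55 and -0.36; grey lines are other members.

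The stalk genes, whose products recruit translation factors to the ribosome, departed in different directions. Rplp0, the base of the stalk, was at 4938, 5490.3 and 5314 CPM in radial glia, Rplp1 at 2965, 4103 and 3605 CPM and Rplp2 at 1756, 3298 and 2872 CPM. For E16/E14 the departures in radial glia were -0.36, -0.05 and 0.39, so that Rplp0 changed less than most members and Rplp2 more. For E18/E14 they were -0.18, -0.00 and 0.42. Over the 3 classes Rplp0 had -0.61 to -0.36 and Rplp2 0.22 to 0.45. Rpl5 and Rpl11, which with 5S RNA form the particle that can bind Mdm2, were at 1377, 2064 and 1805 CPM and at 2637, 3579.9 and 2769 CPM, with departures of 0.07 and -0.07 for E16/E14 and 0.10 and -0.22 for E18/E14, all within 0.32 log2 units of the median.

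Newborn neurons and radial glia differed in the balance of a few members. Newborn neurons departed from radial glia by 1.5-fold in 3 of 78 members labelled E14 (43.5% of genes) and in 1 of 77 labelled E18 (42.0%). No member did so in the same direction in both libraries (18.7% of genes higher and 17.1% lower), while at 0.32 log2 units 3 were higher (27.0%) and 4 lower (26.5%). Cluster 12 labelled E16, whose leading genes include Cajal-Retzius markers, had 0 of 78 past 1.5-fold (44.8%). Over newborn neurons of 2 libraries and cluster 12 of the third, 0 members passed 1.5-fold in either direction (15.6% of genes each). At 0.32 log2 units 3 of 77 were higher in all 3, Rps7, Rps21 and Rpl27 (23.6%), and 3 lower, Rplp1, Rpl4 and Rpsa (24.3%). Across the 77 members the departures in any 2 of these 3 contrasts had a Pearson r of 0.88 to 0.96, a description over genes, and the contrasts with cluster 12 compare another makeup of cells. Values for neurons given below as 3 numbers are of newborn neurons labelled E14, cluster 12 labelled E16 and newborn neurons labelled E18.

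Among members higher in neurons, Rps7, a small subunit protein, was at 2665, 3504 and 3019.7 CPM in radial glia and at 3811, 3537 and 3486 CPM in the neurons, with departures of 0.63, 0.37 and 0.47. Rpl10, which joins the large subunit late in its assembly, was at 1588, 2448 and 2077 CPM and at 1812, 2801 and 2371 CPM (0.30, 0.55 and 0.46). Rps21 departed by 0.43, 0.42 and 0.39 and Rpl27 by 0.35, 0.38 and 0.39. These 4 members had higher CPM in newborn neurons, and in cluster 12, than in radial glia of the same library, while the median member was lower.

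Among members lower in neurons, Rplp1 was at 2965, 4103 and 3605 CPM in radial glia and at 1854, 2476 and 1991 CPM in the neurons, with departures of -0.57, -0.37 and -0.59. Rpl4, which reaches into the exit tunnel, was at 897, 1060.3 and 969.7 CPM and at 519.5, 559.8 and 585 CPM (-0.68, -0.56 and -0.46). Rpsa, also known as the laminin receptor, departed by -0.35, -0.39 and -0.42, and Rps2, at the mRNA entry of the small subunit, by -0.29, -0.48 and -0.37. Of the stalk genes Rplp0 followed Rplp1 (-0.24, -0.34 and -0.37) and Rplp2 stayed nearer the median (-0.08, -0.12 and -0.19). Rpl5 (0.10, -0.01 and 0.13) and Rpl11 (-0.03, -0.05 and -0.01) were near it too.

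**Figure D4:**
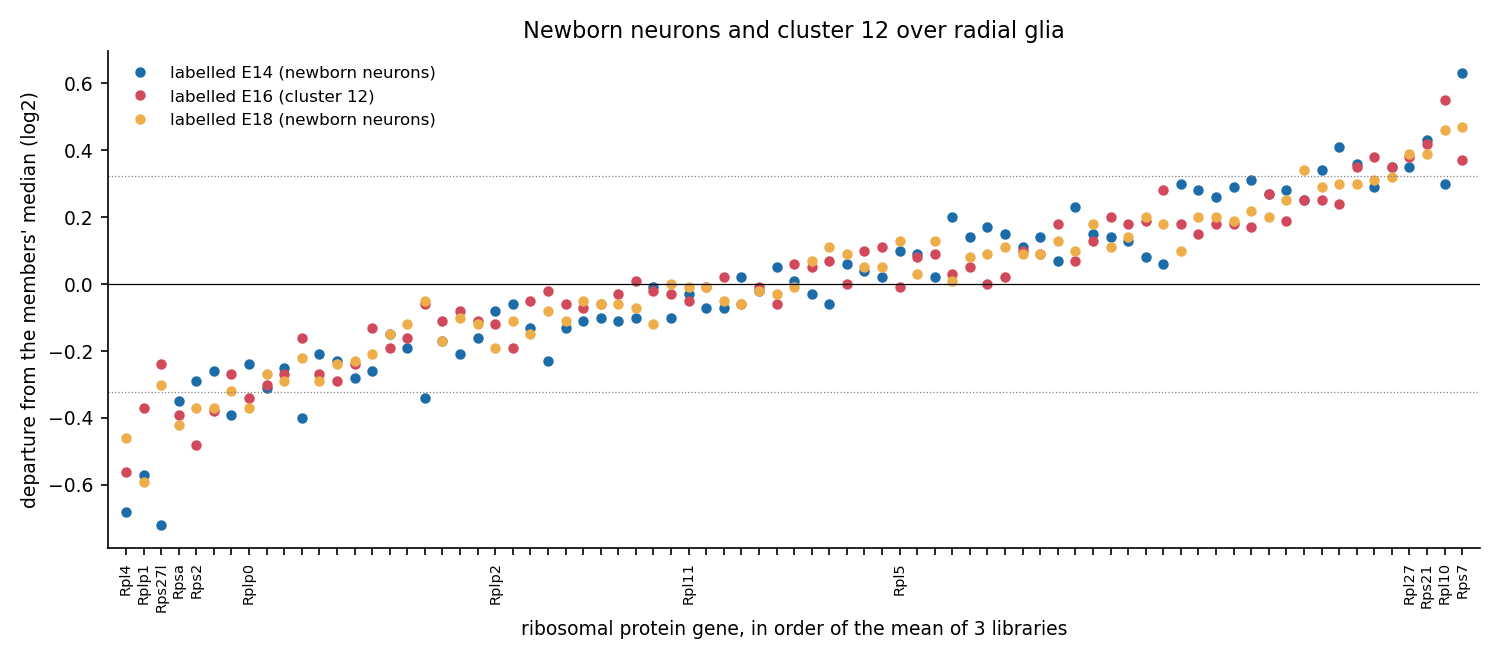
Departure from the members' median in newborn neurons (E14, E18) and cluster 12 (E16) over radial glia (y axis, log2) for 77 members ordered by the mean of 3 libraries (x axis, some members labelled); colours are libraries and dotted lines lie at 0.32 above and below 0. Rpl4, Rplp1 and Rps27l are at the low end and Rps7, Rpl10 and Rps21 at the high end.

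Rps27l, the paralogue of Rps27 known as a p53 target, was higher in radial glia and intermediate progenitors than in newborn and maturing neurons. It was at 524, 469.7 and 488 CPM in radial glia, at 756, 518 and 699 CPM in intermediate progenitors, at 294 and 329.5 CPM in newborn neurons and at 138 and 159.8 CPM in maturing neurons. Of these classes it was highest in intermediate progenitors in each library, and lowest in maturing neurons in the 2 libraries that held them. Its maturing over newborn log2 ratio was -1.09 (-1.16 to -1.03) labelled E14 and -1.04 (-1.15 to -0.94) labelled E18. With departures of -1.05 and -0.80 it was the 1 member of 77 that was lower in both libraries at 0.32 log2 units (13.2% of genes) and at 1.5-fold (6.0%). Newborn neurons over radial glia gave departures of -0.72 labelled E14, which turned to 0.11 with the stricter cell filter, and -0.30 labelled E18. For E16/E14 in radial glia it was the 1 member past 1.5-fold (-0.67) and the 1 member that was lower. How reads shared with Rps27 were counted is not given in the sources used here. Rpl38 was at the other end of the maturation contrast, 562 and 929 CPM in newborn and 702 and 975 CPM in maturing neurons (departures 0.35 and 0.31).

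Intermediate progenitors stayed close to the balance of radial glia. The departures had a standard deviation of 0.12, 0.11 and 0.12, against 0.75, 0.74 and 0.70 over all genes, and no member passed 0.32 log2 units in the same direction in all 3 libraries (13.3% of genes higher and 10.9% lower). Rps27l was above the median in each (0.29, 0.29 and 0.51) and Rpl4 below (-0.36, -0.27 and -0.19).

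GABAergic lineage cells and Cajal-Retzius-like cells were set against the same radial glia, which they share with the contrasts above. In the 56, 75 and 70 GABAergic lineage cells, 12 of 77 members were lower at 0.32 log2 units in all 3 libraries (24.0% of genes) and 4 higher (22.2%), Rpl37, Rps21, Rpl30 and Rpl10. Of the 12, Rplp1, Rpl4, Rps27l and Rps2 were lower by 1.5-fold (16.5% of genes), Rplp1 with departures of -0.77, -0.66 and -1.07 and Rps2 with -0.65, -0.93 and -0.85. In Cajal-Retzius-like cells of 2 libraries 7 members were higher (28.7% of genes), among them Rpl10 (0.56 and 0.71) and Rps7 (0.42 and 0.33). There 4 were lower (28.9%), Rplp1, Rpl4, Rpl14 and Rps2. Rplp1, Rpl4 and Rps2 thus lay below the members' median in each of these classes and libraries. Low values of Rps2 and Rpl4 were not limited to neurons: over the same radial glia Rps2 departed by -0.54 and -0.68 and Rpl4 by -0.36 and -0.40 in the hem-like class, and by -0.66 and -0.46 in meningeal fibroblast-like cells labelled E16.

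Departures of members with and without a tract at the RefSeq start overlapped. The split rests on the annotated start alone. Members counted as without include some with pyrimidine runs that begin with T, such as Rps23 (19 bases). It therefore cannot tell whether messages that carry a tract depart from those that do not. In the mean of newborn neurons and cluster 12 over radial glia the median was 0.02 over 23 members with a tract (-0.51 to 0.49) and -0.03 over 39 without (-0.57 to 0.41). Rps7 and Rplp1, at opposite ends, both have a tract.

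Genes that build ribosomes had lower neuron-to-glia ratios than the ribosomal protein genes. Of 45 biogenesis genes listed, 25 were measurable in newborn neurons over radial glia labelled E14 and 22 of these were lower, with a median log2 ratio of -0.82 beside -0.11 for the members and -0.13 for all genes. Labelled E18, 22 of 25 were lower with a median of -0.74 (members -0.27, all genes -0.07), and in cluster 12 labelled E16 23 of 24 with -1.06 (members -0.36, all genes -0.09). The level minimum keeps some genes only through radial glia, so the list was also taken whole, an alternative chosen after seeing the data. Of all 45 listed genes 40, 43 and 40 were lower (E14, cluster 12, E18), with medians of -0.78, -0.91 and -0.71. All genes with a UMI had medians of -0.05, -0.03 and -0.04. The 20, 21 and 20 listed genes under the minimum had -0.45, -0.74 and -0.55, beside -0.03 in each contrast for all genes under it. Of all genes at the minimum, listed or not, 42.9% were higher labelled E14, 44.9% labelled E18 and 44.7% in cluster 12. In intermediate progenitors the biogenesis medians were -0.41, -0.48 and -0.36, where the members had 0.24, -0.15 and 0.01. Ncl, nucleolin, was at 673, 825 and 708 CPM in radial glia, 469, 538 and 549 CPM in intermediate progenitors and 317, 309 and 322 CPM in the neurons. Npm1, a nucleolar chaperone, was at 1765, 2771 and 2105 CPM, 1634, 2042 and 1781 CPM, and 1030.4, 1476 and 1291 CPM. Both were lower at each of these steps in each library. From newborn to maturing neurons labelled E14 they were higher, at 329.6 and 1211 CPM in the latter, as were 18 of 20 biogenesis genes (median 0.24, all genes -0.03), while labelled E18 5 of 16 were higher (-0.13, all genes -0.02).

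**Figure D5:**
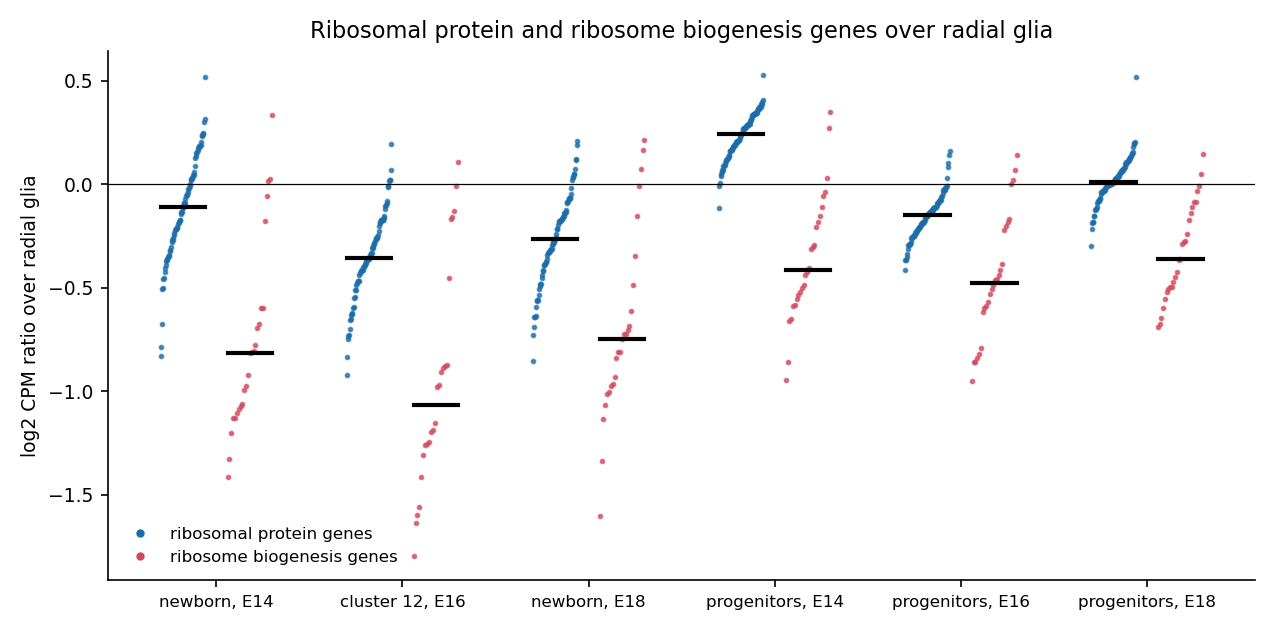
Log2 CPM ratio over radial glia (y axis) for ribosomal protein genes (blue) and ribosome biogenesis genes (red) with a mean of at least 50 CPM, by contrast and library (x axis); black lines are medians. In newborn neurons labelled E14, cluster 12 and newborn neurons labelled E18 the biogenesis medians are -0.82, -1.06 and -0.74 and those of the ribosomal protein genes -0.11, -0.36 and -0.27.

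The lists of translation factors, mitochondrial ribosomal protein genes and upstream regulators lay nearer than the biogenesis list to all genes, whose medians were -0.13, -0.09 and -0.07 in these contrasts (E14, cluster 12, E18). The 19 genes listed as translation factors and related messages had medians of -0.15, -0.11 and -0.12, close to those of all genes, and 8, 5 and 6 of the 19 were higher. Of this list, 0 of 14 matched to RefSeq had a tract at the annotated start. Tpt1 was at 3169, 4264 and 4382 CPM in radial glia, and Eef1a1, an elongation factor, was listed at 178, 219 and 167 CPM. Mitochondrial ribosomal protein genes, which serve another ribosome, had medians of -0.36 (14 of 57 higher), -0.17 (17 of 56) and -0.19 (16 of 56). Mrps33 was at 234, 263 and 234 CPM and Mrpl27 at 267, 241 and 215 CPM in radial glia. Of 19 upstream regulators 5 to 9 were measurable, with medians of -0.13, -0.55 and -0.10, the first and last close to those of all genes. Mycn, a driver of ribosome production, was at 114, 121 and 94.5 CPM in radial glia, 52.4, 40.5 and 43.1 CPM in intermediate progenitors and 104, 63.9 and 95.7 CPM in the newborn neurons and cluster 12. In maturing neurons of the libraries labelled E14 and E18 it had 209 and 78.8 CPM. The 3 measurable dissociation stress genes had medians of 0.91, 0.67 and 0.31 over radial glia, above those of all genes. Ier2 was at 125, 151 and 134 CPM and Jund at 198, 181 and 156 CPM in the newborn neurons and cluster 12, both higher than in radial glia of the same library, and Jun was lower, at 163, 87.4 and 111 CPM. Their part in the neuron contrasts was not tested.

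Between libraries the biogenesis, translation and mitochondrial ribosomal protein lists shifted less than the members in radial glia, in part in the same direction. For E16/E14, where the members' median was 0.52 and that of all genes -0.08 (41.2% higher), the biogenesis median was 0.09 (17 of 28 higher), that of the translation list 0.21 (14 of 19) and that of mitochondrial ribosomal protein genes -0.03 (26 of 59). For E18/E14 (members 0.29, all genes -0.04 with 43.9% higher) they were 0.03 (17 of 28), 0.07 (13 of 19) and -0.14 (10 of 58). For E18/E16 the 3 lists were lower, as the members were: -0.08 (9 of 29 higher), -0.09 (7 of 19) and -0.11 (17 of 58), beside -0.19 for the members and 0.03 for all genes (56.5% higher). Upstream regulators had medians of -0.17 (2 of 8 higher) for E16/E14, -0.13 (2 of 8) for E18/E14 and 0.03 (4 of 7) for E18/E16. The 3 measurable stress genes had 0.04, 0.26 and 0.22. Fau was at 2030.2, 2656 and 2413 CPM and Rack1 at 1395, 2120.1 and 1887 CPM, each highest labelled E16, as the summed share of the members was.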

How the data were processed

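The deposited matrices hold whole-number UMI counts per gene and cell, not normalized; the file headers name Cell Ranger 6.0.1 and the submitters' processing notes build mRatBN7.2. How reads of near-identical copies were counted is not given in the sources used here. Members and gene lists were chosen with earlier results of these data known, and the scoring that names clusters was settled after the clusters had been seen. Barcodes with at least 1000 genes and at most 10% mitochondrial UMIs were kept, and 158, 216 and 259 doublets (E14, E16, E18) were removed by Scrublet score at 0.8% per 1000 cells (Scanpy 1.11.5). Cells were clustered without 339 genes, the members and tested lists among them (leidenalg 0.10.2, resolution 1, 30 principal components, 15 neighbours, 2000 variable genes). The 25 clusters were named from 144 markers of 14 classes. UMIs were summed per class and library for classes of at least 50 cells. Shares have Clopper-Pearson 95% intervals and ratios the exact conditional binomial interval. No test was made, since there is 1 library per label, and thresholds are sizes of change. The naming rule took the 3 highest and 3 lowest departures in radial glia and in newborn neurons between libraries and in newborn neurons over radial glia (by the mean of the libraries), with the stalk, 5S particle and paralogue genes, the 2 most abundant genes of each other list, Mycn and Eef1a1. Rpl27, Rpl39, Rpsa, Rps2, Rack1, Ier2 and the members named in GABAergic and Cajal-Retzius-like cells, among others, fall outside it and were chosen after their values were seen. Some genes that the rule names are not reported here. The fold and interval calculations were tested on simulated data. Alternatives changed the cell filter, doublets, clustering, depth, denominator, level minimum, added CPM, centring and threshold.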

Additional observations from a re-analysis of the deposited data

Results flagged for a closer look

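The ribosomal protein share of intermediate progenitors over radial glia had log2 ratios of 0.23 labelled E14, -0.17 labelled E16 and 0.00 labelled E18, so the first 2 lay on opposite sides of 0 beyond counting error. With the stricter cell filter the value labelled E16 turned to 0.05, and those labelled E14 and E16 were then both above 0. Between clusters not led by genes of mitosis, the ratio was 0.26 labelled E14 and 0.12 labelled E18 for cluster 8 over cluster 5, and -0.03 labelled E16 for cluster 8 over cluster 0. Cluster 3, radial glia labelled E16 led by histone genes, had 22.9%, below the 24.3% of cluster 8. The direction labelled E16 thus depended on the radial glia cluster taken. The difference between libraries was not tested, as there is 1 library per label. Radial glia moved (16.7, 23.2 and 20.6%) more than intermediate progenitors (19.6, 20.6 and 20.7%). The radial glia of the library labelled E16 formed clusters 0, 3 and 10, and those labelled E14 and E18 clusters 5 and 6 among others, so the class is not made of the same cells. Intermediate progenitors were also spread differently over their clusters, with 280, 67 and 393 cells in cluster 8. Within their clusters 8, 11 and 14 the E16/E14 log2 ratio was 0.13, 0.29 and 0.28, against 0.08 for the class.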

How the results depend on the processing

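Log2 share ratios are given in the order newborn neurons over radial glia labelled E14, the same labelled E18, then radial glia E16/E14, E18/E14 and E18/E16; as reported they were -0.11, -0.27, 0.47, 0.30 and -0.17. With at least 2000 genes and at most 5% mitochondrial UMIs they were -0.03, -0.24, 0.43, 0.37 and -0.06, and with at least 500 genes and at most 20% they were -0.22, -0.21, 0.47, 0.29 and -0.18. Without doublet removal they were -0.11, -0.33, 0.44, 0.28 and -0.16. Leiden resolution 0.5 gave -0.03, -0.10, 0.49, 0.32 and -0.17, resolution 2 gave -0.19, -0.30, 0.44, 0.28 and -0.17, and each library clustered alone gave -0.19, -0.26, 0.44, 0.27 and -0.16. Cells of 8000 to 16000 UMIs gave -0.26, -0.34, 0.43, 0.23 and -0.20. A denominator without mitochondrial and haemoglobin UMIs gave -0.07, -0.25, 0.45, 0.29 and -0.16, and medians over cells gave -0.10, -0.28, 0.50, 0.32 and -0.18. Another choice of members was planned and is not reported here. Cluster 5 alone gave 0.30 and cluster 6 alone 0.34 for E18/E14, alternatives chosen after seeing the data, as was the use of cluster 12. None of these ratios changed direction. Without a level minimum the median of the biogenesis list went from -0.82 to -0.78 labelled E14, from -0.74 to -0.71 labelled E18 and from -1.06 to -0.91 in cluster 12.

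Counts of members that departed by 1.5-fold moved as follows. In radial glia, E16/E14 higher went from 0 to 1 without a level minimum and to 4 at the 25% threshold, and lower from 1 to 2 in cells of 8000 to 16000 UMIs and to 8 at the 25% threshold. E18/E14 higher went from 1 to 2 with the stricter filter and with each library clustered alone, to 3 in cells of 8000 to 16000 UMIs and to 12 at the 25% threshold, and lower from 0 to 4 at the 25% threshold. E18/E16 went from 0 to 7 higher and 1 lower at the 25% threshold. In newborn neurons over radial glia, members higher in both libraries went from 0 to 1 without a level minimum and 3 at the 25% threshold, and lower from 0 to 1 with the looser filter or resolution 0.5 and to 4 at the 25% threshold.

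Reversed values were intermediate progenitors over radial glia labelled E16, from -0.17 to 0.05 under the stricter filter, maturing over newborn neurons labelled E14, from -0.04 to 0.05 with the looser filter, 0.03 at resolution 2, 0.01 with each library clustered alone and 0.02 in cells of 8000 to 16000 UMIs, and the departure of Rps27l in newborn neurons over radial glia labelled E14, from -0.72 to 0.11 under the stricter filter; the cause was not tested. No paired analysis was possible because there is 1 library per label. Newborn neurons labelled E16 have no reported value to compare with, as the reported clustering gave 3 such cells.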

Other observations

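Erythroid cells, 123 of them in the library labelled E16, had a ribosomal protein share of 5.66%, with haemoglobin at 81.7% of their UMIs. Without haemoglobin and mitochondrial UMIs the share was 32.2%, against 24% in radial glia of that library. Meningeal fibroblast-like cells labelled E16 had 22%.

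Barcodes that the filters removed had lower ribosomal protein shares of all UMIs than the kept cells of their library. Those under the gene minimum were at 8.98, 9.21 and 8.42% (E14, E16, E18) and those above the mitochondrial maximum at 11.2, 14.4 and 12%, against 15.8, 21.2 and 18.8% in the kept cells. Haemoglobin took 19.8, 54.3 and 45.2% of the UMIs under the gene minimum. Without mitochondrial and haemoglobin UMIs the shares under the gene minimum were 15.3, 23.8 and 18.9%, against 17, 23.2 and 19.8% in the kept cells, so that the difference was smaller and turned direction labelled E16, and those above the mitochondrial maximum were 14.3, 18.5 and 15.2%.

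Rpl22l1, a paralogue of Rpl22 outside the symbol pattern, had 778, 1289 and 1052 CPM among radial glia and 511 and 649.8 CPM among newborn neurons labelled E14 and E18. Rpl22 itself had 1377, 2048 and 1768 CPM and 1141 and 1350.4 CPM. Both were chosen after their values were seen.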
